A study of Homo sapiens with 6 samples.

Results

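The nuclear-encoded subunit genes of the mitochondrial respiratory chain were described in a pair of human B cell lymphoma lines with and without acquired resistance to kinase inhibitors. Genes were taken by name, from the prefixes of the subunits of complexes I to V, leaving out complex I assembly factors and pseudogenes, and the rule found 93 genes of 23844 in the tables. Of these, 83 are subunit genes, with 37 in complex I, 4 in complex II, 8 in complex III, 19 in complex IV and 15 in complex V. Subunit genes with another name, such as CYC1 (cytochrome c1 of complex III), are not reached by the rule. The counts and sums by complex leave them out. The other 10 share a prefix only and are given apart. A gene was tested when it had 1 FPKM or more in at least 1 library, where FPKM is a count of fragments scaled to transcript length and to the mapped total, summed over the isoforms of a gene. This left 84 of the 93 genes, 77 of them subunit genes, among 12337 genes in all. The 6 subunit genes under this level were COX4I2, COX6A2, COX6B2, COX7A1, COX7B2 and COX8C.

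PolyA RNA was sequenced from 6 cultures with 1 library each. DAUDI cells come from a Burkitt lymphoma and DOHH2 cells from a follicular lymphoma. Each was profiled as cells resistant to idelalisib, an inhibitor of the delta isoform of PI3K, as cells resistant to ibrutinib, an inhibitor of the kinase BTK, and as cells labelled WT. The labels give no drug dose, no time of selection and no statement on whether drug was present at harvest. Nothing in them says that a resistant culture was cloned.

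The respiratory chain sits in the inner mitochondrial membrane. Complex I and complex II pass electrons from NADH and succinate to ubiquinone, complex III passes them on to cytochrome c, and complex IV, cytochrome c oxidase, gives them to oxygen. Complexes I, III and IV pump protons, and complex V, the ATP synthase, uses the proton gradient to make ATP. Complex II is wholly nuclear-encoded, while the other complexes also hold subunits encoded by mitochondrial DNA, which were not analysed here. Several complex IV subunits come in a widely expressed form and a form bound to heart and skeletal muscle, lung or testis.

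The libraries labelled WT did not resemble the resistant cells of their own line. Across 12186 genes with an isoform of 300 nt or more, the DOHH2 and DAUDI libraries labelled WT correlated with Pearson r = 0.991. With the resistant libraries of their own line r was 0.722 to 0.737, while the resistant libraries of a line had r of 0.980 (DAUDI) and 0.992 (DOHH2). Over the 84 respiratory chain genes the WT-labelled libraries had r = 0.996, as a description across genes that are not independent. A difference from a WT-labelled library is therefore a difference from that library, and whether it arose within the line was not tested. All 7 B cell markers were above 1 FPKM in all 6 libraries. Of 6 muscle markers, MYH7 was listed at 0 everywhere and the sum was 12.1 to 20.4 FPKM in resistant DAUDI, nearly all TNNT1, and 0.271 to 0.315 in resistant DOHH2, against 0.167 and 0.754 FPKM in the libraries labelled WT. The sum of 6 myeloid markers was 21.3 to 24.2 FPKM in resistant DAUDI and 2.01 to 3.13 in resistant DOHH2, against 16.3 and 19.2 in the libraries labelled WT. In each WT-labelled library 1 of the 6 reached 1 FPKM and made nearly all of the sum, at 16.1 (DAUDI) and 18.7 (DOHH2) FPKM. In each resistant DAUDI library 4 reached 1 FPKM, and in each resistant DOHH2 library 1 did. The part of these markers in the results was not tested. Of 6 markers each, the T and NK cell list summed to at most 3.22 FPKM, with CD3D at 0 in every library, and the stromal and epithelial list to at most 7.31 FPKM. Relative depth was 0.935 to 1.42 times that of the DAUDI library labelled WT.

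The promoters of the subunit genes that led the difference between resistant and WT-labelled cells are shown first, because NRF1 and the ETS factor GABPA are known regulators of respiratory chain genes. RefSeq start sites (build GRCh38.p14) were matched for 70 of the 84 tested genes, and the 250 bases before the start were searched on both strands. The NRF1 core GCGCANGCG was present before 19 of the 70 genes, or 27.1%, and before 7.02% of all 27305 promoters. The ETS core CCGGAAG was present before 17, or 24.3%, and before 8.82% of all promoters, and 32 genes held one or the other, or 45.7%, against 14.6% of all promoters. The SP1 core GGGCGG was present before 39 genes, or 55.7%, and before 42.3% of all promoters. The 70 genes had all passed the filter of 1 FPKM, while the 27305 promoters include genes that were not tested. These shares are thus not from like sets, and a share over tested genes was not taken. Matches may overlap each other and are letter matches only. Of the 7 subunit genes with the smallest adjusted p in that comparison, 6 are shown 5′ to 3′ in the direction of the gene, with NRF1 and ETS matches in capitals, and ATP5D is named only. They are NDUFV2 (chr18:9102449-9102698, plus strand), NDUFA3 (chr19:54102605-54102854, plus), UQCR11 (chr19:1605463-1605712, minus), UQCRFS1 (chr19:29213152-29213401, minus), ATP5I, now named ATP5ME (chr4:674277-674526, minus), and ATP5L, now named ATP5MG (chr11:118401356-118401605, plus).
NDUFV2: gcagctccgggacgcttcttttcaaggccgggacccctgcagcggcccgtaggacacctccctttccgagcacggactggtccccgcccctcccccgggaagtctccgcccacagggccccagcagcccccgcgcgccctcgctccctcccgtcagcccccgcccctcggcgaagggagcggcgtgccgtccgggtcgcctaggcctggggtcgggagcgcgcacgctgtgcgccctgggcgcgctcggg
NDUFA3: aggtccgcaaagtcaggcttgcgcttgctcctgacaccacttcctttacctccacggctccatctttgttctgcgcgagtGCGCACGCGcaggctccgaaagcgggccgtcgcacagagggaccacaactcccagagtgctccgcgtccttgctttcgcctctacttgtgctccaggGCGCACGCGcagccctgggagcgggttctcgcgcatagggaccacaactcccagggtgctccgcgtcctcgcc
UQCR11: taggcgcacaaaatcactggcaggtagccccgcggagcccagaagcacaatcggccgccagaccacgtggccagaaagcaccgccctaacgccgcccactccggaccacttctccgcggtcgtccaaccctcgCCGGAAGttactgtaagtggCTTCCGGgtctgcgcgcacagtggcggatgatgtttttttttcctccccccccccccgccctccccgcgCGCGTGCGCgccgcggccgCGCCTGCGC
UQCRFS1: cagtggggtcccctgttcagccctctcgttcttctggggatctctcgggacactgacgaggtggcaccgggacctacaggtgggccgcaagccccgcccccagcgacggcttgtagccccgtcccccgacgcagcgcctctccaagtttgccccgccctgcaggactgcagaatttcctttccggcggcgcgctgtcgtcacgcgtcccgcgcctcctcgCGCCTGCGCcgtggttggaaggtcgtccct
ATP5I: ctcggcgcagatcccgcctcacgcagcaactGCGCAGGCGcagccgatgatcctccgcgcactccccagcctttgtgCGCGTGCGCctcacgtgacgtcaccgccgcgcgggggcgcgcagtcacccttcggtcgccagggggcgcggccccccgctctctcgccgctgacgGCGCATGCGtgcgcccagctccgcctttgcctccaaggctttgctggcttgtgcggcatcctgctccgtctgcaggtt
ATP5L: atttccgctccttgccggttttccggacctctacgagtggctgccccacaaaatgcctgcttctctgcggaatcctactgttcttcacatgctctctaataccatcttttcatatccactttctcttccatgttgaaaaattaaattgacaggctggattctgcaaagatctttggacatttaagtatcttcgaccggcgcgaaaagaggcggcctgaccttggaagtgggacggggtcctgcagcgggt
ATP5I holds 3 NRF1 matches and NDUFA3 holds 2, UQCR11 holds 2 NRF1 and 2 ETS matches, UQCRFS1 holds 1 NRF1 match, and NDUFV2 and ATP5L hold neither. Genes that were lower and genes that were higher in resistant cells thus both include windows with and without a match.

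Mean levels were highest for subunits of complexes IV and V and for UQCRH alone in complex III, where the next gene, UQCRC2, averaged 100 FPKM. The beta and alpha subunits of the ATP synthase catalytic head, ATP5B and ATP5A1, had mean levels of 316 and 310.2 FPKM over the 6 libraries. UQCRH, the hinge protein of complex III, averaged 314 FPKM, and the complex IV subunits COX7C and COX4I1 averaged 287 and 265 FPKM. The lowest tested subunit genes of each complex were NDUFA10 in complex I at 10.2 FPKM, SDHC in complex II at 12.8 FPKM, NDUFA4L2 in complex IV at 4.08 FPKM and ATP5G3 in complex V at 24.8 FPKM, while UQCRB, the lowest of complex III, had 6.76 to 15.2 FPKM in the resistant libraries, against 10.97 (DAUDI) and 11.6 (DOHH2) FPKM in those labelled WT. The spread of a gene over the 6 libraries, highest minus lowest log2(FPKM + 1), had a median of 0.74 over the 84 genes, 1.13 over all tested genes and 1.01 over genes with a mean of 10 FPKM or more. A spread of 1 or more was found in 27 of the 84 genes, or 32.1%, against 57.1% of all tested genes and 50.3% of those at 10 FPKM or more. COX7C was the most even, at 285 (idelalisib) and 291 (ibrutinib) FPKM in resistant DAUDI and 283 (idelalisib) and 295 (ibrutinib) FPKM in resistant DOHH2, against 273 (DAUDI) and 293 (DOHH2) FPKM in the libraries labelled WT. All 6 COX7C values lie within 0.12 on the log2 scale.

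Summed subunit mRNA of complex III was low in resistant DAUDI, under either other scaling as well. Without UQCRH, whose level is uncertain, the gap was smaller. The sums of complexes I and V were lower in all 4 resistant libraries than in either WT-labelled library, also under either other scaling. In FPKM as deposited, this order no longer held in either complex with 1 abundant gene left out. Sums with a gene left out were not taken under the other scalings. The 37 complex I genes summed to 1827 (idelalisib) and 1960.1 (ibrutinib) FPKM in resistant DAUDI and 1937 and 1859 FPKM in the like DOHH2 libraries, against 2065 (DAUDI) and 2047 (DOHH2) FPKM in the libraries labelled WT. Without NDUFA3 the other 36 genes summed to 1732 to 1876 FPKM in the resistant libraries, against 1806 (DAUDI) and 1782 (DOHH2) FPKM in those labelled WT, and the groups overlap. The 4 complex II genes summed to 123 (idelalisib) and 149.8 (ibrutinib) FPKM in resistant DAUDI and 175 and 170.4 FPKM in resistant DOHH2, against 152 (DAUDI) and 146 (DOHH2) FPKM in those labelled WT. Resistant DOHH2 thus stood above both WT-labelled libraries in complex II, and resistant DAUDI did not. The 8 complex III genes summed to 434 (idelalisib) and 484 (ibrutinib) FPKM in resistant DAUDI and 657 and 704 FPKM in resistant DOHH2, against 714 (DAUDI) and 744 (DOHH2) FPKM in those labelled WT. Without UQCRH the other 7 summed to 268 and 299 FPKM in resistant DAUDI and 315 and 309 FPKM in resistant DOHH2, against 335 (DAUDI) and 328 (DOHH2) FPKM in those labelled WT. UQCRH was the most abundant of the 8, at 165 and 186 FPKM in resistant DAUDI and 379 FPKM in DAUDI labelled WT. Its reads may be shared with the copy UQCRHL, so its values are uncertain. The 13 complex IV genes summed to 1681 (idelalisib) and 1937 (ibrutinib) FPKM in resistant DAUDI and 1501 and 1433 FPKM in resistant DOHH2, against 1681 (DAUDI) and 1709.6 (DOHH2) FPKM in those labelled WT. Resistant DOHH2 had the lowest complex IV sums. The 15 complex V genes summed to 1830.4 (idelalisib) and 1946 (ibrutinib) FPKM in resistant DAUDI and 2115 and 1977 FPKM in resistant DOHH2, against 2231 (DAUDI) and 2151 (DOHH2) FPKM in those labelled WT. Without ATP5A1 the other 14 genes summed to 1616 to 1837 FPKM in the resistant libraries, against 1758 (DAUDI) and 1724 (DOHH2) FPKM in those labelled WT, and the groups overlap. Within complex V the 10 membrane and outer stalk genes summed to 1012 (idelalisib) and 1109 (ibrutinib) FPKM in resistant DAUDI and 1052 and 994 FPKM in resistant DOHH2, against 892 (DAUDI) and 869 (DOHH2) FPKM in those labelled WT. This sum was higher in all 4 resistant libraries, but it includes ATP5I and ATP5L, which rose, and was not taken without them. Gene by gene, 5 of the 10 were above and 5 below the WT-labelled library in each DAUDI comparison. The DOHH2 comparisons had 8 (idelalisib) and 6 (ibrutinib) of the 10 above. The sums without a gene and by portion of complex V were chosen after values were seen. With 1 library per group these sums carry no replicate error. In bulk RNA less mRNA per cell and fewer cells with that mRNA cannot be told apart.

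**Figure D1:**
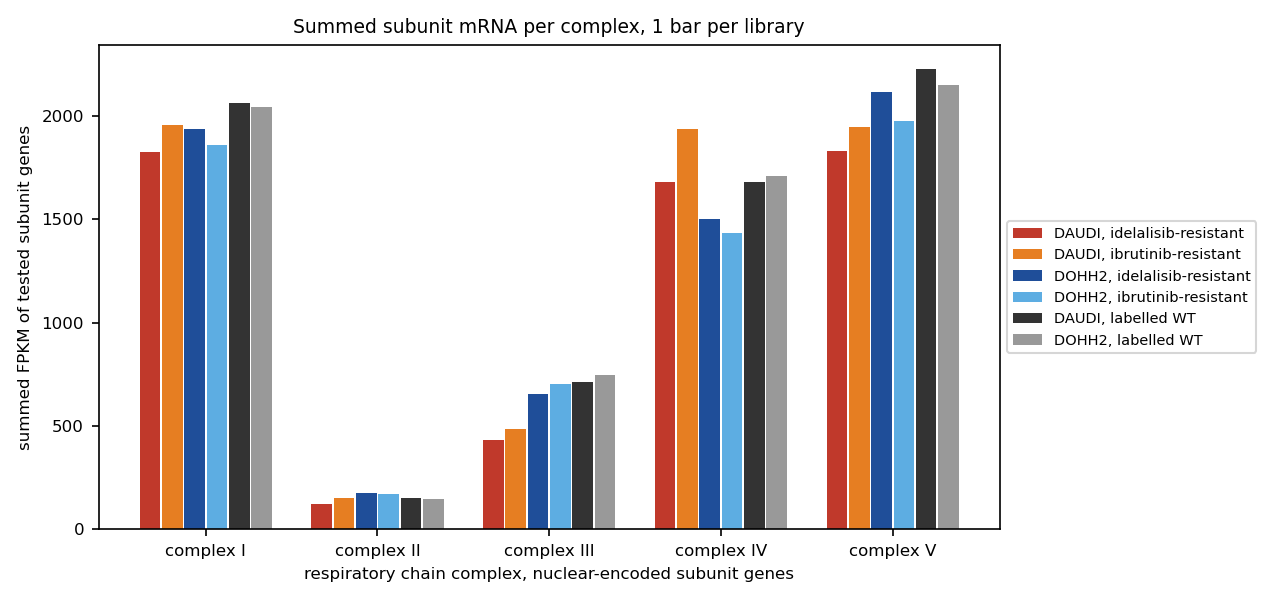
Summed FPKM of the tested nuclear-encoded subunit genes of each complex (vertical axis, linear, from 0), with 1 bar per library and no error bars because each group has 1 library. Complex III stood at 434 and 484 FPKM in the resistant DAUDI libraries, and at 657 to 744 FPKM in the other libraries. These sums include UQCRH, whose reads may be shared with the copy UQCRHL.

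Between resistant and WT-labelled cells, 11 of the 84 genes changed, 3 upward and 8 downward. The fall took in the complex I core subunits NDUFV2 and NDUFS7, the complex III subunits UQCR11 and UQCRFS1, and the ATP synthase head and stalk subunits ATP5A1 and ATP5D, while the ATP synthase membrane subunits ATP5I and ATP5L rose. The test was limma on log2(FPKM + 1) in all 6 libraries, with cell line as a block and state as factor, 4 resistant against 2 WT-labelled libraries, with the Benjamini-Hochberg adjusted p taken over the 12337 genes and a threshold of 0.05. The 11 genes are 13.1% of the 84, and 27.3% of all genes tested passed, 14.2% upward and 13.1% downward, so the share of respiratory chain genes is not above the background. The median difference was -0.02 over the 84 genes and 0.12 over all tested genes, on the log2 scale. The lines serve as the replicates of a state, so p-values measure only the spread between these 6 libraries, and without any 1 of the 4 resistant libraries, with 1 residual degree of freedom left, limma called 0 of the 84 genes (10 to 18 at an unadjusted p under 0.05). With both WT-labelled libraries taken as replicates of 1 group, limma called 42 of the 84, against 61.8% of all genes.

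In complex I 4 of 37 subunit genes, or 10.8%, fell and none rose, by limma with 10 of 37 at an unadjusted p under 0.05. This is near the 13.1% of all genes that fell, so the count is no result about the complex as a whole. NDUFV2, an iron-sulfur subunit of the NADH dehydrogenase arm (hg19 chr18:9102628-9134343), stood at 23.8 (idelalisib) and 21.2 (ibrutinib) FPKM in resistant DAUDI and 16.8 (idelalisib) and 16.4 (ibrutinib) FPKM in resistant DOHH2, against 58.9 (DAUDI) and 59.7 (DOHH2) FPKM in the libraries labelled WT. The resistant and WT-labelled values do not overlap, and resistant DOHH2 is the lowest. The fitted difference was -1.57 ± 0.17 (SE, adjusted p = 0.0104), the largest fall among the 84 genes. Its partner in that arm, the flavin subunit NDUFV1, stood at 56.03 (idelalisib) and 52.5 (ibrutinib) FPKM in resistant DAUDI and 55.2 (idelalisib) and 61.7 (ibrutinib) FPKM in resistant DOHH2, against 56.98 (DAUDI) and 60.5 (DOHH2) FPKM in the libraries labelled WT, and the ratio of NDUFV2 to NDUFV1 was 0.266 to 0.425 in the resistant libraries and 0.987 to 1.03 in those labelled WT. NDUFS7, a core subunit next to the ubiquinone site (hg19 chr19:1383883-1395588), stood at 42.6 (idelalisib) and 40.8 (ibrutinib) FPKM in resistant DAUDI and 33.2 (idelalisib) and 28.97 (ibrutinib) FPKM in resistant DOHH2, against 63.8 (DAUDI) and 66.8 (DOHH2) FPKM in the libraries labelled WT. All 4 resistant values are below both WT-labelled values, with a fitted difference of -0.84 ± 0.17 (SE, adjusted p = 0.0367).

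The accessory subunit NDUFA3 (hg19 chr19:54606160-54610281) had the highest mean level in complex I, 158.7 FPKM. It stood at 79.8 (idelalisib) and 84.2 (ibrutinib) FPKM in resistant DAUDI and 137 (idelalisib) and 126 (ibrutinib) FPKM in resistant DOHH2, against 259 (DAUDI) and 265 (DOHH2) FPKM in the libraries labelled WT, with a fitted difference of -1.33 ± 0.20 (SE, adjusted p = 0.0203). Resistant DAUDI was the lowest and resistant DOHH2 intermediate. The accessory subunit NDUFA8 (hg19 chr9:124906338-124922098) fell less, at 26.7 (idelalisib) and 35.1 (ibrutinib) FPKM in resistant DAUDI and 21.7 (idelalisib) and 26.1 (ibrutinib) FPKM in resistant DOHH2, against 42.9 (DAUDI) and 40.4 (DOHH2) FPKM in the libraries labelled WT, and passed only just, at -0.61 ± 0.14 (SE, adjusted p = 0.0496). The groups do not overlap, and the ibrutinib-resistant DAUDI value comes nearest to the WT-labelled ones. NDUFA7, another accessory subunit, missed the threshold at 0.63 ± 0.15 (SE, adjusted p = 0.0501), with 48.8 to 58.1 FPKM in the resistant libraries, against 34.6 (DAUDI) and 34.4 (DOHH2) FPKM in those labelled WT. The 7 nuclear-encoded core subunits, a grouping made after values were seen, had a median difference of -0.61 with 2 falls, and the 30 accessory subunits had a median of 0.01 with 2 falls. The next highest genes of complex I, NDUFA13 and NDUFA1, did not pass (adjusted p = 0.195 and 0.187, limma), although their groups do not overlap. NDUFA13 stood at 126 (idelalisib) and 142 (ibrutinib) FPKM in resistant DAUDI and 129 (idelalisib) and 123 (ibrutinib) FPKM in resistant DOHH2, against 103 (DAUDI) and 110.4 (DOHH2) FPKM in the libraries labelled WT. NDUFA1 stood at 102 (idelalisib) and 109 (ibrutinib) FPKM in resistant DAUDI and 90.2 (idelalisib) and 97.5 (ibrutinib) FPKM in resistant DOHH2, against 122 (DAUDI) and 116 (DOHH2) FPKM in the libraries labelled WT.

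Complex II, succinate dehydrogenase, had 0 of 4 genes passing by limma, with 1 at an unadjusted p under 0.05. The membrane anchor SDHD (hg19 chr11:111957548-111966525) stood at 32.9 (idelalisib) and 38.4 (ibrutinib) FPKM in resistant DAUDI and 48.2 (idelalisib) and 45.03 (ibrutinib) FPKM in resistant DOHH2, against 24.3 (DAUDI) and 21.2 (DOHH2) FPKM in the libraries labelled WT. Its resistant values all lie above the WT-labelled ones, and the fitted difference was 0.82 ± 0.20 (SE, adjusted p = 0.0531). The flavoprotein subunit SDHA stood at 29.5 (idelalisib) and 39.2 (ibrutinib) FPKM in resistant DAUDI and 50.4 (idelalisib) and 56.7 (ibrutinib) FPKM in resistant DOHH2, against 57.95 (DAUDI) and 60.8 (DOHH2) FPKM in the libraries labelled WT. The iron-sulfur subunit SDHB stood at 56.3 (idelalisib) and 67.3 (ibrutinib) FPKM in resistant DAUDI and 60.1 (idelalisib) and 53.2 (ibrutinib) FPKM in resistant DOHH2, against 51.04 (DAUDI) and 46.8 (DOHH2) FPKM in the libraries labelled WT. SDHA was lowest in resistant DAUDI, with all resistant values below both WT-labelled ones, and neither SDHA nor SDHB passed (adjusted p = 0.151 and 0.252, limma). Reads of SDHA may be shared with its pseudogenes, of which SDHAP3 was listed at 5.95 to 10.1 FPKM in the resistant libraries, against 15.9 (DAUDI) and 16.6 (DOHH2) FPKM in those labelled WT.

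In complex III 2 of 8 genes fell, and none rose, against 13.1% of all genes lower and 14.2% higher. The small subunit UQCR11 (hg19 chr19:1597154-1605483) stood at 21.3 (idelalisib) and 23.7 (ibrutinib) FPKM in resistant DAUDI and 23.7 (idelalisib) and 24.6 (ibrutinib) FPKM in resistant DOHH2, against 61.4 (DAUDI) and 57.6 (DOHH2) FPKM in the libraries labelled WT. The 4 resistant values lie close together and far below the WT-labelled ones, with a fitted difference of -1.31 ± 0.13 (SE, adjusted p = 0.00977). UQCR10, another small subunit, stood at 38.1 to 45.6 FPKM in the resistant libraries, against 37.2 (DAUDI) and 34.3 (DOHH2) FPKM in those labelled WT, and the ratio of UQCR11 to UQCR10 was 0.520 to 0.596 in resistant libraries and 1.65 to 1.68 in those labelled WT. The Rieske iron-sulfur protein UQCRFS1 (hg19 chr19:29698167-29704136) stood at 41.2 (idelalisib) and 42.1 (ibrutinib) FPKM in resistant DAUDI and 46.8 (idelalisib) and 42.1 (ibrutinib) FPKM in resistant DOHH2, against 80.5 (DAUDI) and 74.9 (DOHH2) FPKM in the libraries labelled WT. The groups do not overlap, and the fitted difference was -0.84 ± 0.13 (SE, adjusted p = 0.0222). The core protein UQCRC2 stood at 100.5 (idelalisib) and 108 (ibrutinib) FPKM in resistant DAUDI and 112 (idelalisib) and 113 (ibrutinib) FPKM in resistant DOHH2, against 81.7 (DAUDI) and 85.4 (DOHH2) FPKM in the libraries labelled WT. It missed the threshold at 0.37 ± 0.12 (SE, adjusted p = 0.0939).

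In complex IV 0 of 13 tested genes passed by limma, with 2 at an unadjusted p under 0.05. The widely expressed subunit COX4I1 stood at 285 (idelalisib) and 303 (ibrutinib) FPKM in resistant DAUDI and 259 (idelalisib) and 227 (ibrutinib) FPKM in resistant DOHH2, against 247 (DAUDI) and 267 (DOHH2) FPKM in the libraries labelled WT. Resistant values lie on both sides of the WT-labelled ones. COX6B1 stood at 197 (idelalisib) and 239 (ibrutinib) FPKM in resistant DAUDI and 185 (idelalisib) and 179.7 (ibrutinib) FPKM in resistant DOHH2, against 266 (DAUDI) and 274 (DOHH2) FPKM in the libraries labelled WT. Its resistant values are all below the WT-labelled ones, and the fitted difference was -0.44 ± 0.16 (SE, adjusted p = 0.113). The median difference over the 13 genes was 0.03.

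In complex V 2 of 15 genes rose and 2 fell, 13.3% each, near the 14.2% and 13.1% of all genes. Those that rose and those that fell belong to different parts of the enzyme. The alpha subunit of the catalytic head, ATP5A1, stood at 214 (idelalisib) and 199.5 (ibrutinib) FPKM in resistant DAUDI and 279 (idelalisib) and 268 (ibrutinib) FPKM in resistant DOHH2, against 473 (DAUDI) and 428 (DOHH2) FPKM in the libraries labelled WT, with a fitted difference of -0.92 ± 0.18 (SE, adjusted p = 0.0345). The groups do not overlap, and resistant DAUDI is the lowest. The delta subunit of the central stalk, ATP5D (hg19 chr19:1241749-1244824), stood at 51.1 (idelalisib) and 50.3 (ibrutinib) FPKM in resistant DAUDI and 76.3 (idelalisib) and 75.1 (ibrutinib) FPKM in resistant DOHH2, against 150.4 (DAUDI) and 155 (DOHH2) FPKM in the libraries labelled WT, with a fitted difference of -1.29 ± 0.18 (SE, adjusted p = 0.0159). Both resistant DAUDI values are about equal and below both resistant DOHH2 values, which are in turn below the WT-labelled ones. The beta subunit ATP5B stood at 256 (idelalisib) and 257 (ibrutinib) FPKM in resistant DAUDI and 341 (idelalisib) and 311 (ibrutinib) FPKM in resistant DOHH2, against 362 (DAUDI) and 369 (DOHH2) FPKM in the libraries labelled WT, and missed the threshold at -0.34 ± 0.15 (SE, adjusted p = 0.167). Over the 5 head and central stalk genes the median difference was -0.34, and over the 10 membrane and outer stalk genes it was 0.14. This split of the enzyme was made after values were seen.

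The subunits that rose, e (ATP5I) and g (ATP5L), sit in the membrane part and are known for joining ATP synthase dimers. ATP5I (hg19 chr4:666225-668127) stood at 189 (idelalisib) and 246 (ibrutinib) FPKM in resistant DAUDI and 221 (idelalisib) and 176 (ibrutinib) FPKM in resistant DOHH2, against 89.8 (DAUDI) and 91.8 (DOHH2) FPKM in the libraries labelled WT, with a fitted difference of 1.17 ± 0.20 (SE, adjusted p = 0.0245). All 4 resistant values are above both WT-labelled values. ATP5L (hg19 chr11:118272104-118280562) stood at 133 (idelalisib) and 141 (ibrutinib) FPKM in resistant DAUDI and 62.6 (idelalisib) and 61.5 (ibrutinib) FPKM in resistant DOHH2, against 34.4 (DAUDI) and 30.5 (DOHH2) FPKM in the libraries labelled WT, with a fitted difference of 1.48 ± 0.27 (SE, adjusted p = 0.0287). The resistant values again lie above the WT-labelled ones, with resistant DAUDI above resistant DOHH2. The membrane subunit f, ATP5J2, stood at 179.7 to 199.95 FPKM in the resistant libraries, against 189 (DAUDI) and 150.5 (DOHH2) FPKM in those labelled WT, so that the ratio of ATP5L to ATP5J2 was 0.330 to 0.726 in resistant libraries and 0.182 to 0.203 in those labelled WT. ATP5E, the epsilon subunit, stood at 173 (idelalisib) and 181 (ibrutinib) FPKM in resistant DAUDI and 215 (idelalisib) and 197 (ibrutinib) FPKM in resistant DOHH2, against 223 (DAUDI) and 212 (DOHH2) FPKM in the libraries labelled WT. It did not pass (adjusted p = 0.378, limma). Its reads may be shared with the copy ATP5EP2, listed at 138 to 157 FPKM over the 6 libraries.

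**Figure D2:**
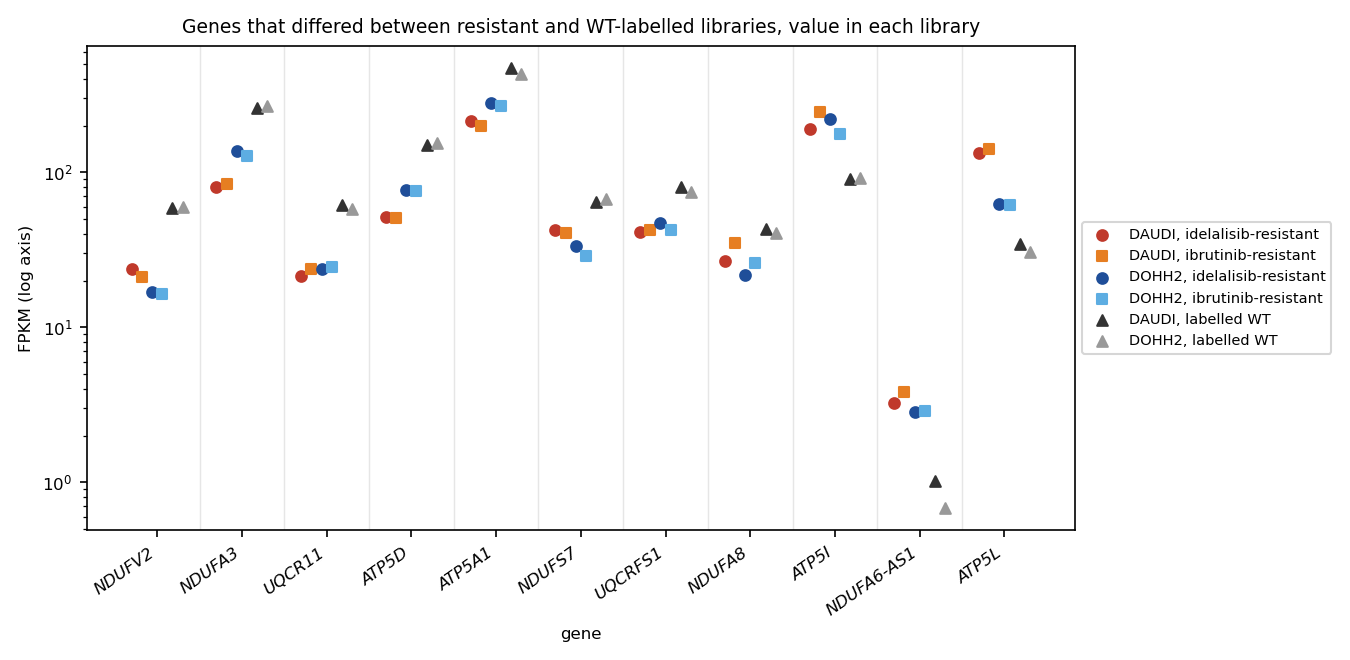
FPKM (vertical axis, logarithmic) of the 11 genes that differed between resistant and WT-labelled libraries, ordered from the largest fall to the largest rise, with 1 point per library. For each gene the 4 resistant points lie on one side of both WT-labelled triangles, as for NDUFV2 at 16.4 to 23.8 FPKM in the resistant libraries, against 58.9 (DAUDI) and 59.7 (DOHH2) FPKM in those labelled WT.

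Each drug was also set against WT in the same limma fit. For idelalisib 3 of the 84 genes rose and 5 fell, 9.52% in all, against 19.6% of all genes, with 9.19% higher and 10.4% lower. For ibrutinib 3 rose and 5 fell, again 9.52%, against 19.7% of all genes, with 9.99% higher and 9.67% lower. For either drug the genes that rose were ATP5I, ATP5L and NDUFA6-AS1, and those that fell were NDUFV2, NDUFA3, UQCR11, ATP5D and UQCRFS1. Both comparisons share the WT-labelled libraries and so are not independent. NDUFV2 differed by -1.52 for idelalisib and -1.62 for ibrutinib. ATP5I differed by 1.16 for idelalisib and 1.19 for ibrutinib.

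Ibrutinib resistance set directly against idelalisib resistance called 0 of the 84 genes in limma over 6 libraries, with 0 at an unadjusted p under 0.05. In that comparison 0.00811% of all genes passed, which is 1 gene, and 71 genes had an unadjusted p under 0.05. A fit of the 4 resistant libraries alone also called 0 of the 84 (0 at an unadjusted p under 0.05) and 0 genes in all, with 212 genes at an unadjusted p under 0.05. Within DAUDI, 1 of the 84 genes was 1 or more apart on the log2 scale between the drugs, against 3.5% of all genes. It was the complex I accessory subunit NDUFB3, at 17.4 FPKM in ibrutinib-resistant and 37.8 FPKM in idelalisib-resistant DAUDI. NDUFB3 in DOHH2 stood at 29.7 FPKM in ibrutinib-resistant and 31.4 FPKM in idelalisib-resistant cells. Within DOHH2 none of the 84 was 1 or more apart, against 1.08% of all genes, a comparison of single libraries with no test. The core subunit NDUFS1, which carries iron-sulfur clusters, stood at 10.04 FPKM in ibrutinib-resistant and 18.3 FPKM in idelalisib-resistant DAUDI, and at 33.9 FPKM in DAUDI labelled WT.

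Within each line the differences from the WT-labelled library were read without a test, as genes 1 or more apart on the log2 scale. In DAUDI with idelalisib resistance 4 of the 84 genes were higher and 9 lower, 15.5% in all, against 31.1% of all genes (15.3% higher and 15.8% lower). In DAUDI with ibrutinib resistance 6 were higher and 11 lower, 20.2% against 34.9% (20.2% and 14.6%). In DOHH2 with idelalisib resistance 5 were higher and 6 lower, 13.1% against 31.8% (16% and 15.7%). In DOHH2 with ibrutinib resistance 3 were higher and 9 lower, 14.3% against 30.6% (14.9% and 15.7%). All 4 shares are below those of all genes. The WT-labelled libraries, DOHH2 minus DAUDI, had 0 of the 84 genes apart, against 1.09% of all genes, and a median absolute difference of 0.10. The median difference of the 84 genes was -0.05 and 0.02 in DAUDI with idelalisib and ibrutinib resistance, and -0.04 and -0.09 in DOHH2. Over all genes the medians were 0.05, 0.18, 0.08 and 0.03 in the same comparisons. Scaling by the median of ratios moved the value of all genes in ibrutinib-resistant DAUDI to -0.02 and that of the 84 genes to -0.24, which turns its sign. Relative to all genes the 84 stood at -0.16 as deposited and -0.22 under that scaling.

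By complex, the medians of complexes II, III and IV lay on opposite sides of 0 in the lines, and that of complex I did not. For complex I the median was -0.04 (idelalisib) and -0.12 (ibrutinib) in DAUDI, and -0.08 and -0.11 in DOHH2. For complex III the median was -0.34 (idelalisib) and -0.26 (ibrutinib) in DAUDI, and 0.22 (idelalisib) and 0.19 (ibrutinib) in DOHH2. For complex IV it was 0.04 (idelalisib) and 0.24 (ibrutinib) in DAUDI, and -0.05 and -0.15 in DOHH2. Under median of ratios scaling complex III stood at -0.43 and -0.50 in DAUDI, and at 0.05 and 0.07 in DOHH2, close to 0. Under the same scaling complex IV stood at -0.05 and 0.01 in DAUDI, close to 0, and at -0.22 and -0.28 in DOHH2. For complex II the median was -0.41 and -0.08 in DAUDI and 0.15 and 0.04 in DOHH2, and the DOHH2 values turned to -0.03 and -0.08 under that scaling. For complex V it was -0.21 and -0.06 in DAUDI and 0.03 and -0.03 in DOHH2. For the complex I core it was -0.57 and -0.63 in DAUDI and -0.30 and -0.25 in DOHH2, below 0 in all 4 comparisons. Under upper quartile scaling the medians of complexes II, III and IV kept the sides of 0 that they had as deposited. Complex IV then stood at 0.08 and 0.12 in DAUDI and at -0.11 and -0.17 in DOHH2. Complex II stood at -0.37 and -0.21 in DAUDI and at 0.09 and 0.03 in DOHH2. All these medians are descriptions of 1 library against 1.

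**Figure D3:**
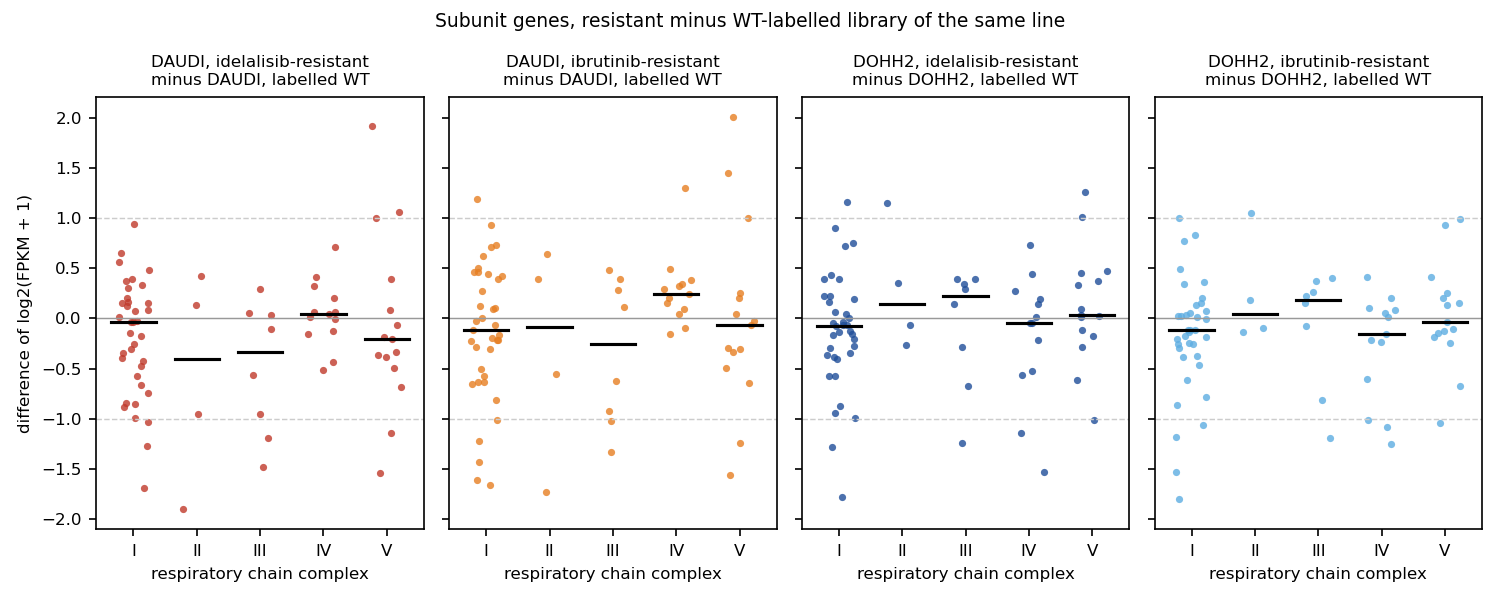
Difference of log2(FPKM + 1), resistant minus WT-labelled library of the same line (vertical axis), for each tested subunit gene by complex, in 4 panels of 1 library against 1. Black lines are medians and dashed lines mark 1 and -1. Most genes lie between the dashed lines, and the complex III medians stand at -0.34 and -0.26 in the DAUDI panels and at 0.22 and 0.19 in the DOHH2 panels.

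Several genes were apart from the WT-labelled library in one line only. In DAUDI these included SDHC, ATP5G3 and NDUFA10, and in DOHH2 they included COX7A2, COX7B, NDUFC2 and NDUFB2. The complex I accessory subunit NDUFA10 stood at 5.52 (idelalisib) and 5.64 (ibrutinib) FPKM in resistant DAUDI and 12.7 (idelalisib) and 12.8 (ibrutinib) FPKM in resistant DOHH2, against 12.4 (DAUDI) and 12.3 (DOHH2) FPKM in the libraries labelled WT. It was low in resistant DAUDI, with the other 4 libraries between 12.3 and 12.8 FPKM. The accessory subunit NDUFC2 stood at 12.8 (idelalisib) and 19.5 (ibrutinib) FPKM in resistant DAUDI and 5.01 (idelalisib) and 4.08 (ibrutinib) FPKM in resistant DOHH2, against 14.6 (DAUDI) and 13.6 (DOHH2) FPKM in the libraries labelled WT, and was low in resistant DOHH2 only. NDUFB2, another accessory subunit, stood at 53.9 (idelalisib) and 41.05 (ibrutinib) FPKM in resistant DAUDI and 89.2 (idelalisib) and 79.9 (ibrutinib) FPKM in resistant DOHH2, against 48.3 (DAUDI) and 39.4 (DOHH2) FPKM in the libraries labelled WT, and was high in resistant DOHH2. Between the resistant lines these 3 genes missed the threshold in limma, at adjusted p = 0.0505 for NDUFA10, 0.0626 for NDUFC2 and 0.0517 for NDUFB2.

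The resistant libraries of DOHH2 and DAUDI were set against each other directly. Of the 84 genes 8 differed, 4 higher and 4 lower in DOHH2, or 9.52% against 15.5% of all genes, of which 7.04% were higher and 8.48% lower. SDHC, UQCRH, its copy UQCRHL and NDUFB1 were higher in DOHH2, and COX7B, COX7A2, ATP5L and ATP5G3 were lower. The test was limma on the 4 resistant libraries with drug as a block, where the drugs serve as replicates of a line and 1 residual degree of freedom is left. With 1 library left out the drug term could not be kept, and the spread then rests on the line that still has both libraries. With the line term alone limma called 19 of the 84 in all 4 libraries, 0 without idelalisib-resistant or without ibrutinib-resistant DOHH2 (15 and 18 at an unadjusted p under 0.05) and 14 without idelalisib-resistant DAUDI. With no filter on low values the fit with both terms called 0 (27 at an unadjusted p under 0.05). With the 6 libraries taken as 3 groups it called 30, against 39% of all genes. The median difference was -0.04 over the 84 genes and -0.04 over all genes.

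SDHC, the membrane anchor of complex II that works with SDHD (hg19 chr1:161284166-161334535), stood at 16.4 (idelalisib) and 15.5 (ibrutinib) FPKM in resistant DOHH2, against 4.21 (idelalisib) and 4.87 (ibrutinib) FPKM in resistant DAUDI. Resistant DAUDI was far below all other libraries, since those labelled WT held 18.5 (DAUDI) and 17.2 (DOHH2) FPKM. The fitted difference was 1.62 ± 0.18 (SE, adjusted p = 0.0303). The ratio of SDHC to SDHD was 0.341 to 0.345 in resistant DOHH2, 0.127 to 0.128 in resistant DAUDI, and 0.762 to 0.810 in the libraries labelled WT. In complex III, UQCRH (hg19 chr1:46769380-46782447) stood at 342 (idelalisib) and 396 (ibrutinib) FPKM in resistant DOHH2, against 165 (idelalisib) and 186 (ibrutinib) FPKM in resistant DAUDI, with 379 (DAUDI) and 417 (DOHH2) FPKM in those labelled WT. Resistant DAUDI was low and resistant DOHH2 near the WT-labelled level, and the fitted difference was 1.07 ± 0.12 (SE, adjusted p = 0.0308). UQCRB, a small complex III subunit, lay just outside the threshold at 0.998 ± 0.16 (SE, adjusted p = 0.0539). NDUFB1, a complex I accessory subunit (hg19 chr14:92582468-92588153), stood at 108 (idelalisib) and 109.5 (ibrutinib) FPKM in resistant DOHH2, against 49.1 (idelalisib) and 57.4 (ibrutinib) FPKM in resistant DAUDI, with 66.02 and 63.97 FPKM in DAUDI and DOHH2 labelled WT. Resistant DOHH2 alone was high, and the fitted difference was 1.02 ± 0.13 (SE, adjusted p = 0.0358).

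In complex IV, COX7B (hg19 chrX:77154961-77160881) stood at 52.7 (idelalisib) and 72.4 (ibrutinib) FPKM in resistant DOHH2, against 167 (idelalisib) and 157 (ibrutinib) FPKM in resistant DAUDI, with 168 (DAUDI) and 154 (DOHH2) FPKM in those labelled WT. Resistant DOHH2 was below the other 4 libraries, and the fitted difference was -1.38 ± 0.19 (SE, adjusted p = 0.0432). COX7A2, the widely expressed form of subunit VIIa (hg19 chr6:75947391-75953644), stood at 43.4 (idelalisib) and 40.3 (ibrutinib) FPKM in resistant DOHH2, against 95.02 (idelalisib) and 123 (ibrutinib) FPKM in resistant DAUDI, with 93.9 and 97.2 FPKM in DAUDI and DOHH2 labelled WT. It too was low in resistant DOHH2 only, at a fitted difference of -1.35 ± 0.18 (SE, adjusted p = 0.0399). In complex V, ATP5L differed between the lines by -1.13 ± 0.12 (SE, adjusted p = 0.027), with the values given above. ATP5G3, which encodes the membrane ring subunit c, stood at 17.5 (idelalisib) and 18.03 (ibrutinib) FPKM in resistant DOHH2, against 38.9 (idelalisib) and 38.9 (ibrutinib) FPKM in resistant DAUDI, with 18.9 (DAUDI) and 16.4 (DOHH2) FPKM in those labelled WT. Only resistant DAUDI was high, and the fitted difference was -1.09 ± 0.12 (SE, adjusted p = 0.0316).

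**Figure D4:**
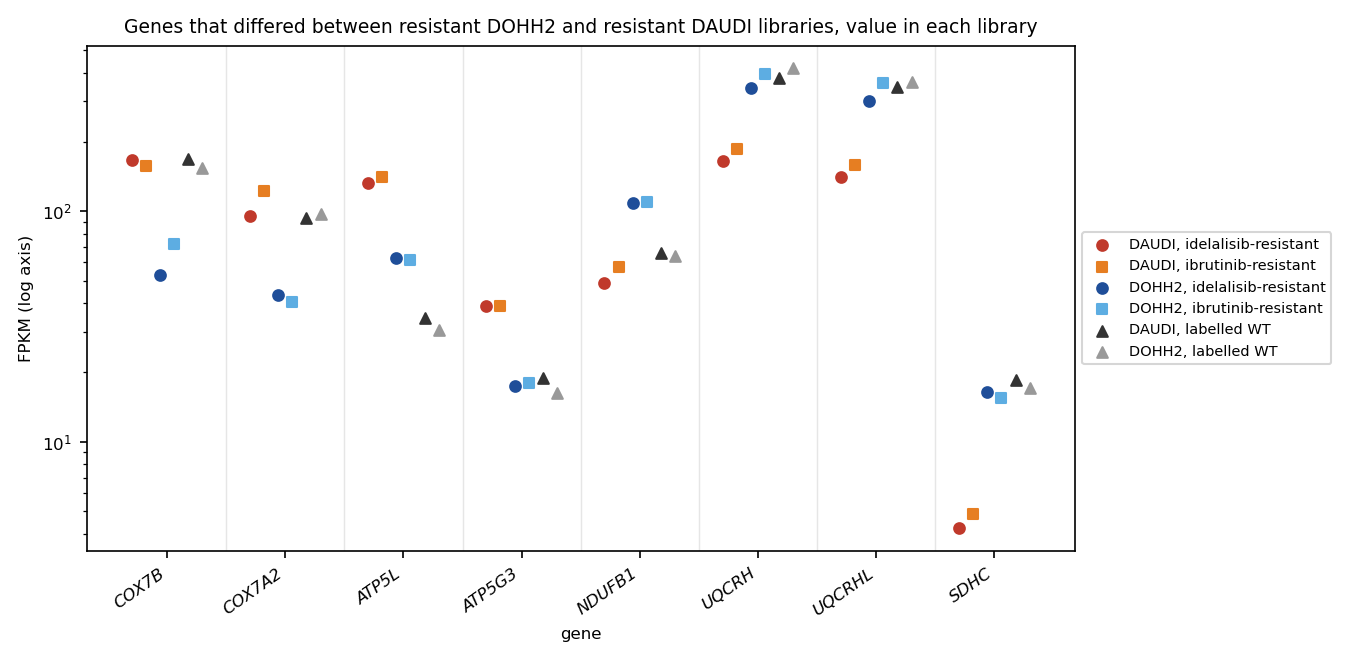
FPKM (vertical axis, logarithmic) of the 8 genes that differed between resistant DOHH2 and resistant DAUDI libraries, ordered from the lowest to the highest difference, with 1 point per library. In COX7B and COX7A2 the blue DOHH2 points lie below all others, and in SDHC and UQCRH the red and orange DAUDI points do, as for SDHC at 16.4 (idelalisib) and 15.5 (ibrutinib) FPKM in resistant DOHH2, against 4.21 (idelalisib) and 4.87 (ibrutinib) FPKM in resistant DAUDI.

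Tissue-type paralogs stayed at or near 0 in all 6 libraries. COX6A2 and COX7A1, the forms of heart and skeletal muscle, and COX7B2 were listed at 0 in every library. The lung form COX4I2 reached at most 0.132 FPKM, COX6B2 0.0226 FPKM and COX8C, known from testis, 0.0673 FPKM. Of the widely expressed counterparts, COX6A1 stood at 87.5 (idelalisib) and 118 (ibrutinib) FPKM in resistant DAUDI and 101 (idelalisib) and 76.3 (ibrutinib) FPKM in resistant DOHH2, against 83.5 (DAUDI) and 73.7 (DOHH2) FPKM in the libraries labelled WT. COX8A stood at 88.7 (idelalisib) and 132 (ibrutinib) FPKM in resistant DAUDI and 113 (idelalisib) and 113 (ibrutinib) FPKM in resistant DOHH2, against 127 (DAUDI) and 131 (DOHH2) FPKM in the libraries labelled WT. Neither passed in resistant against WT-labelled cells (adjusted p = 0.393 and 0.361, limma). The complex IV subunit NDUFA4, named for complex I, stood at 10.2 (idelalisib) and 8.98 (ibrutinib) FPKM in resistant DAUDI and 13.5 (idelalisib) and 10.6 (ibrutinib) FPKM in resistant DOHH2, against 7.43 (DAUDI) and 7.71 (DOHH2) FPKM in the libraries labelled WT. Its paralog NDUFA4L2, a known hypoxia-induced gene, stood at 3.30 (idelalisib) and 5.04 (ibrutinib) FPKM in resistant DAUDI and 3.89 (idelalisib) and 2.47 (ibrutinib) FPKM in resistant DOHH2, against 3.78 (DAUDI) and 6.02 (DOHH2) FPKM in the libraries labelled WT. NDUFA4L2 was the only tissue-type or conditional paralog above 1 FPKM in these sets, and it did not pass in either limma comparison (adjusted p = 0.487 for resistant minus WT-labelled and 0.561 for resistant DOHH2 minus resistant DAUDI).

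Paralogs that are all expressed differed in their shares between lines. Of the 3 genes for subunit c, which encode the same mature protein, ATP5G3 gave 19.8% (idelalisib) and 18.3% (ibrutinib) of the summed FPKM in resistant DAUDI and 7.30% and 7.66% in resistant DOHH2, against 7.49% (DAUDI) and 6.34% (DOHH2) in the libraries labelled WT. ATP5G2 gave 51.0% (idelalisib) and 60.1% (ibrutinib) in resistant DAUDI and 67.2% and 70.0% in resistant DOHH2, against 63.9% (DAUDI) and 70.4% (DOHH2) in those labelled WT. ATP5G1 gave 29.1% (idelalisib) and 21.6% (ibrutinib) in resistant DAUDI and 25.5% and 22.4% in resistant DOHH2, against 28.6% (DAUDI) and 23.3% (DOHH2) in those labelled WT. The ATP5G3 share was thus high in resistant DAUDI only. Of the COX7A genes, COX7A2L, which is known to join complexes III and IV into supercomplexes, stood at 105 (idelalisib) and 159 (ibrutinib) FPKM in resistant DAUDI and 87.9 (idelalisib) and 76.9 (ibrutinib) FPKM in resistant DOHH2, against 63.9 (DAUDI) and 72.7 (DOHH2) FPKM in the libraries labelled WT. Its share of COX7A mRNA was 52.6% (idelalisib) and 56.3% (ibrutinib) in resistant DAUDI and 66.9% and 65.6% in resistant DOHH2, against 40.5% (DAUDI) and 42.8% (DOHH2) in those labelled WT. All 4 resistant shares are above both WT-labelled ones. With 1 library per group the shares carry no test.

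Of the 10 genes that share only a prefix, 7 were tested. NDUFA6-AS1, an RNA gene named as antisense to NDUFA6 whose locus does not overlap it (hg19 chr22:42486937-42521354 and chr22:42481530-42486888), rose, at 3.26 (idelalisib) and 3.83 (ibrutinib) FPKM in resistant DAUDI and 2.82 (idelalisib) and 2.86 (ibrutinib) FPKM in resistant DOHH2, against 1.02 (DAUDI) and 0.677 (DOHH2) FPKM in the libraries labelled WT. The groups do not overlap, and the fitted difference was 1.18 ± 0.17 (SE, adjusted p = 0.0173). NDUFA6 itself stood at 11.1 to 20.5 FPKM in the resistant libraries, against 23.1 (DAUDI) and 20.99 (DOHH2) FPKM in those labelled WT, and did not pass (adjusted p = 0.224, limma). NDUFB2-AS1 overlaps the start of NDUFB2, and the strand setting of the quantification is not given in the sources used here, so reads of that pair cannot be told apart. UQCRHL, an intronless copy of UQCRH, stood at 141 (idelalisib) and 159 (ibrutinib) FPKM in resistant DAUDI and 302 (idelalisib) and 361 (ibrutinib) FPKM in resistant DOHH2, against 347 (DAUDI) and 364 (DOHH2) FPKM in the libraries labelled WT. This is 0.850 to 0.917 times the FPKM of UQCRH in every library. Its difference between resistant DOHH2 and resistant DAUDI, 1.13 ± 0.12 (SE, adjusted p = 0.0282), is close to that of UQCRH, and shared reads may be split between them, so both values are uncertain. The assembly factors SDHAF1 and SDHAF2 and the genes ATP5S and ATP5SL did not pass in either limma comparison, with SDHAF2 at 13.7 to 16.9 FPKM in the resistant libraries, against 17.4 (DAUDI) and 20.6 (DOHH2) FPKM in those labelled WT (adjusted p = 0.243 for resistant minus WT-labelled). The copy ATP5L2 and both read-through genes were under 1 FPKM in every library.

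Genes that assemble or feed the chain were read from 10 lists. Over all genes 14.2% rose and 13.1% fell between resistant and WT-labelled cells, so 1 or 2 genes of a list of about 10 are near the background and are given as single genes. Of 13 complex I assembly factors, 4 rose by limma, or 30.8%, and none fell, and the median over the 13 was 0.43. ECSIT stood at 23.7 (idelalisib) and 20.8 (ibrutinib) FPKM in resistant DAUDI and 22.5 (idelalisib) and 20.99 (ibrutinib) FPKM in resistant DOHH2, against 8.24 (DAUDI) and 8.32 (DOHH2) FPKM in the libraries labelled WT, with a fitted difference of 1.31 ± 0.14 (SE, adjusted p = 0.00993). TMEM126B, part of the same assembly complex, differed by 1.11 ± 0.14 (SE, adjusted p = 0.0143), at 13.4 to 19.02 FPKM in the resistant libraries, against 7.65 (DAUDI) and 6.41 (DOHH2) FPKM in those labelled WT. NDUFAF4 differed by 1.45 ± 0.18 (SE, adjusted p = 0.0136) and NDUFAF6 by 1.21 ± 0.22 (SE, adjusted p = 0.0275). For all 4 the resistant values lie above both WT-labelled values. NDUFAF1 of the same list went the other way without passing, at -0.78 ± 0.24 (SE, adjusted p = 0.0852, limma). It stood at 3.40 to 9.58 FPKM in the resistant libraries, against 10.2 (DAUDI) and 11.8 (DOHH2) FPKM in those labelled WT. Of 10 complex II and III assembly factors 1 fell: LYRM7, which stabilises the Rieske protein UQCRFS1, stood at 10.5 (idelalisib) and 9.87 (ibrutinib) FPKM in resistant DAUDI and 10.1 (idelalisib) and 11.1 (ibrutinib) FPKM in resistant DOHH2, against 39.9 (DAUDI) and 38.4 (DOHH2) FPKM in the libraries labelled WT. Its difference was -1.82 ± 0.14 (SE, adjusted p = 0.00612), and UQCRFS1 fell by 0.84. Of 23 complex IV assembly factors 2 rose and 1 fell. COA6, a copper delivery factor, differed by 1.04 ± 0.15 (SE, adjusted p = 0.0172), COX11, another copper factor, by 0.77 ± 0.14 (SE, adjusted p = 0.0278), and COA3 by -1.68 ± 0.32 (SE, adjusted p = 0.0304). COA3 stood at 4.12 (idelalisib) and 3.46 (ibrutinib) FPKM in resistant DAUDI and 9.95 (idelalisib) and 9.26 (ibrutinib) FPKM in resistant DOHH2, against 21.6 (DAUDI) and 22.1 (DOHH2) FPKM in the libraries labelled WT, lowest in resistant DAUDI.

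Of 4 complex V assembly and inhibitor genes 1 rose. ATPIF1, the inhibitor that stops ATP hydrolysis by the synthase, stood at 103 (idelalisib) and 151 (ibrutinib) FPKM in resistant DAUDI and 113 (idelalisib) and 97.6 (ibrutinib) FPKM in resistant DOHH2, against 30.6 (DAUDI) and 32.95 (DOHH2) FPKM in the libraries labelled WT. The resistant values are all well above the WT-labelled ones, and the difference was 1.81 ± 0.22 (SE, adjusted p = 0.013). ATPAF1, which helps to assemble the beta subunit, was at 0.405 (idelalisib) and 0.565 (ibrutinib) FPKM in resistant DOHH2, against 16.9 (idelalisib) and 18.03 (ibrutinib) FPKM in resistant DAUDI, with 28.8 (DAUDI) and 26.7 (DOHH2) FPKM in those labelled WT. It was thus far lower in resistant DOHH2 than in the other 4 libraries, with a difference between the resistant lines of -3.64 ± 0.17 (SE, adjusted p = 0.0119). In the same comparison, in which 7.04% of all genes were higher and 8.48% lower, the complex IV factor COX20 was higher in DOHH2, at 1.17 ± 0.18 (SE, adjusted p = 0.0485), and the outer membrane channel VDAC3 lower, at -1.34 ± 0.12 (SE, adjusted p = 0.0223). VDAC3 stood at 19.9 (idelalisib) and 24.6 (ibrutinib) FPKM in resistant DOHH2, against 53.3 (idelalisib) and 62.1 (ibrutinib) FPKM in resistant DAUDI, with 19.7 and 20.2 FPKM in DAUDI and DOHH2 labelled WT.

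Of 9 genes for cytochrome c and the nucleotide, phosphate and outer membrane carriers, the ADP/ATP carrier SLC25A5 alone passed between resistant and WT-labelled cells, at 0.76 ± 0.17 (SE, adjusted p = 0.0423) and 281 to 399.7 FPKM in the resistant libraries, against 199 (DAUDI) and 200.4 (DOHH2) FPKM in those labelled WT. The complex III subunit CYC1, counted in this list, did not pass (adjusted p = 0.722, limma). It stood at 43.7 to 60.6 FPKM in the resistant libraries, against 55.5 (DAUDI) and 55.4 (DOHH2) FPKM in those labelled WT. Of 11 genes of pyruvate entry, both subunits of the mitochondrial pyruvate carrier rose and none fell, or 18.2% higher. MPC1 stood at 22.1 (idelalisib) and 45.2 (ibrutinib) FPKM in resistant DAUDI and 23.2 (idelalisib) and 20.2 (ibrutinib) FPKM in resistant DOHH2, against 2.49 (DAUDI) and 3.80 (DOHH2) FPKM in the libraries labelled WT. Its difference was 2.73 ± 0.38 (SE, adjusted p = 0.0167), and that of MPC2 was 0.997 ± 0.14 (SE, adjusted p = 0.0178). Of 14 TCA cycle genes 14.3% rose and 14.3% fell, near the shares over all genes. The 2 that rose were citrate synthase CS at 0.56 ± 0.13 (SE, adjusted p = 0.0465) and IDH3B at 0.53 ± 0.12 (SE, adjusted p = 0.0496), and the 2 that fell were fumarase FH at -0.80 ± 0.15 (SE, adjusted p = 0.0301) and IDH3A at -0.75 ± 0.14 (SE, adjusted p = 0.0305). IDH3A and IDH3B encode subunits of the same isocitrate dehydrogenase and moved in opposite directions. Of 12 genes of coenzyme Q synthesis COQ10A rose, at 1.48 ± 0.21 (SE, adjusted p = 0.0172). Of 12 genes of mitochondrial DNA upkeep and transcription the topoisomerase TOP1MT rose, at 1.54 ± 0.17 (SE, adjusted p = 0.0111), and the polymerase POLG and thymidine kinase TK2 fell, at -0.71 ± 0.14 (SE, adjusted p = 0.0345) and -1.49 ± 0.16 (SE, adjusted p = 0.0109). TK2 stood at 0.0773 to 0.178 FPKM in the resistant libraries, against 2.07 (DAUDI) and 2.29 (DOHH2) FPKM in those labelled WT. Of 9 regulators of mitochondrial biogenesis limma called 0 (2 at an unadjusted p under 0.05), with NRF1 at 4.04 to 5.72 FPKM in the resistant libraries, against 4.48 (DAUDI) and 3.73 (DOHH2) FPKM in those labelled WT. GABPA stood at 11.8 to 13.9 FPKM in the resistant libraries, against 8.65 (DAUDI) and 8.89 (DOHH2) FPKM in those labelled WT. The same caution on the WT-labelled libraries holds for these lists.

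**Figure D5:**
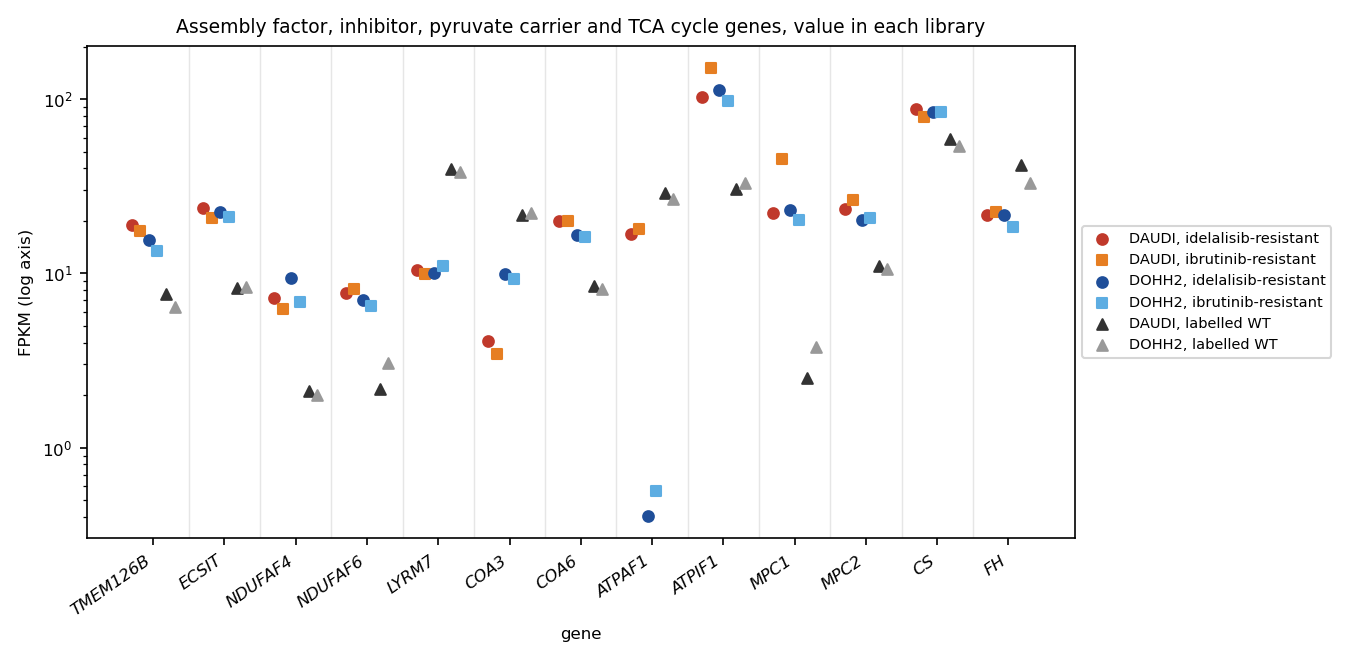
FPKM (vertical axis, logarithmic) of 13 genes that assemble, regulate or feed the respiratory chain, with 1 point per library. MPC1 and ATPIF1 lie higher in all 4 resistant libraries than in those labelled WT, LYRM7 lies lower, and ATPAF1 drops to 0.405 and 0.565 FPKM in resistant DOHH2 only.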

How the data were processed

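PolyA RNA of 6 cultures was sequenced with a directional mRNA kit, per the labels' protocols. Per the submitters' processing notes, bcl2fastq, cutadapt, TopHat2 and Cufflinks were used with hg19. No source used here gives their versions or the strand setting. The deposited tables list, per the file headers, FPKM per isoform for 43490 RefSeq isoforms, made by the authors by scaling fragments to transcript length and mapped fragments, beside a coverage signal and the isoform length. Lower and upper confidence limits of each FPKM were also listed and were not used. Absolute depth is unknown without counts. Relative depth was read from the deposited coverage per FPKM.

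FPKM were summed per gene symbol. Isoforms without a gene name (528) and genes whose estimate had failed in a library (10) were removed, none of them a respiratory chain gene. The filter kept genes reaching 1 FPKM in any library, and log2(FPKM + 1) was taken, so a difference understates the ratio of weakly expressed genes. limma 3.58.1 in R 4.3.3 was run on all 12337 genes with empirical Bayes with trend, two-sided, and Benjamini-Hochberg adjustment. The residual degrees of freedom were 2 (6 libraries, line and state) and 1 (4 resistant libraries, line and drug), with prior degrees of freedom of 2.00 and 1.93 and a median SE of 0.21 and 0.17. Errors given are SE of the fitted difference on the log2(FPKM + 1) scale. The fits were run on simulated data with independent noise in each library, to check that known differences were recovered. The simulated libraries lacked the likeness of the WT-labelled libraries, so that check does not bear on the p-values given here.

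The genes, gene lists and tests were chosen with earlier results of these data known. Any respiratory chain gene could be named. Values in all 6 libraries are given for genes called in either limma comparison, those 1 or more apart in both resistant libraries of a line, paralog sets and the 3 highest genes of each complex, and of each pathway list any called gene and up to 4 others. Other settings tried were pseudocounts of 0.1 and 5, other filters, other scalings, isoforms of 300 nt or more, other groupings, and leaving out each library. Promoter sequences are RefSeq's for GRCh38.p14, and gene positions are those of the deposited tables in hg19.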

Additional observations from a re-analysis of the deposited data

Results flagged for a closer look

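UQCRB, a small subunit of complex III, moved in opposite directions from the WT-labelled library in the lines. It stood at 7.08 (idelalisib) and 6.76 (ibrutinib) FPKM in resistant DAUDI and 14.4 (idelalisib) and 15.2 (ibrutinib) FPKM in resistant DOHH2, against 10.97 (DAUDI) and 11.6 (DOHH2) FPKM in the libraries labelled WT. Both resistant DOHH2 libraries lie above the DOHH2 library labelled WT, by 0.29 and 0.37 on the log2 scale, and both resistant DAUDI libraries lie below the DAUDI library labelled WT, by -0.57 and -0.63. The mean effect in DOHH2 exceeded that in DAUDI by 0.93, and this difference of effects was not tested. Only genes with a difference of at least 0.25 in every library were looked at, a limit chosen after values were seen. Set directly against each other, resistant DOHH2 minus resistant DAUDI was 0.998 ± 0.16 (SE, adjusted p = 0.0539) in limma, just outside the threshold. The pseudogene UQCRBP1 was listed at 2.15 to 5.18 FPKM in the resistant libraries, against 2.71 (DAUDI) and 3.84 (DOHH2) FPKM in those labelled WT.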

How the results depend on the processing

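For resistant against WT-labelled cells, limma called 11 of the 84 genes as reported. Treating the libraries as 3 groups, with both WT-labelled libraries as replicates, called 42, among them all 11, against 61.8% of all genes. Leaving out each library in turn gave 0 to 15. For resistant DOHH2 against resistant DAUDI the 8 calls became 0 with no filter on low values, 13 each with median of ratios scaling, upper quartile scaling and isoforms of 300 nt or more, 19 with no drug term and 30 with 3 groups. Leaving out each library, with the line term alone because the drug term then could not be fitted, gave 0 to 14. The cause of these shifts was not tested, except that fits with more residual degrees of freedom rest on the assumption that WT-labelled libraries or drugs are replicates. Within a line, median of ratios scaling moved the median of the 84 genes to -0.24 in ibrutinib-resistant DAUDI, where it was 0.02, -0.22 in idelalisib-resistant DOHH2 and -0.21 in ibrutinib-resistant DOHH2, and upper quartile scaling moved the first to -0.11. A pseudocount of 5 left 7 genes 1 or more apart in idelalisib-resistant DOHH2, against 11. None of the 19 named differences changed direction in any setting tried, and over all settings and left-out libraries 193 repeats still passed and 94 did not. NDUFV2, UQCR11, NDUFA3, ATP5D, UQCRFS1, NDUFS7 and ATP5I passed in all 10 settings that keep every library, and NDUFA8 in 5 of 10.

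Libraries were paired by cell line (6 libraries) and by drug (4 resistant libraries) in the fits reported. Without the cell line term 11 genes passed, 9 of them among the 11 reported, and without the drug term 19. No pairing by replicate number was possible, since the labels carry none. Absolute depth cannot be read from FPKM, and the deposited confidence limits of FPKM were not used. No error within a library is therefore given, and genes under about 1 FPKM are the least certain.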

Other observations

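A few subunit genes differed in which isoform the tables credit. For NDUFC1, a complex I accessory subunit, isoform NM_001184990 took 0.00364% (idelalisib) and 0.00638% (ibrutinib) of the gene's FPKM in resistant DOHH2, against 95.0% in DOHH2 labelled WT. In resistant DAUDI it took 37.7% (idelalisib) and 0.00323% (ibrutinib), against 61.6% in DAUDI labelled WT. Isoform NM_001184987 took 66.2% and 58.9% in resistant DOHH2, against 0.0403% in DOHH2 labelled WT. In resistant DAUDI it took 47.1% (idelalisib) and 73.9% (ibrutinib), against 30.8% in DAUDI labelled WT. The shares of both isoforms thus also differed between the WT-labelled libraries. These isoforms are 721 and 725 nt long, and 2 listed isoforms of NDUFS5 are 567 and 571 nt long. How reads were split between isoforms of such like length was not tested, so these shares are uncertain. For NDUFS5, NM_004552 took 47.9% (idelalisib) and 55.1% (ibrutinib) in resistant DOHH2, against 3.52% in DOHH2 labelled WT, and 0.956% and 1.502% in resistant DAUDI, against 2.09% in DAUDI labelled WT. Of 35 genes with 2 or more isoforms and 10 FPKM or more in both libraries of a comparison, NDUFC1 and NDUFS5 had an isoform whose share differed from the WT-labelled library by 50 points or more. With no minimum ATP5S, which shares only the prefix, is added to them. Its isoform NM_001003803 took 32.0% (idelalisib) and 8.20% (ibrutinib) in resistant DAUDI, against 97.8% in DAUDI labelled WT, and NR_033761 took 56.7% and 84.2%, against 0.00398%. In DOHH2 the share of NM_001003803 was 67.3% and 87.0% in resistant cells, against 45.1% in cells labelled WT.

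ATP5D, NDUFS7 and UQCR11, which fell between resistant and WT-labelled cells, lie close together on chromosome 19 in hg19, with ATP5D at chr19:1241749-1244824, NDUFS7 at chr19:1383883-1395588 and UQCR11 at chr19:1597154-1605483. Their differences were -1.29 ± 0.18 (SE), -0.84 ± 0.17 (SE) and -1.31 ± 0.13 (SE). The tested genes within 1 Mb of each, 48, 52 and 53 in number and largely the same genes, had median differences of 0.43, 0.32 and -0.26, with 14, 13 and 12 rising and 10, 10 and 11 falling by limma. ATP5A1 and NDUFV2 are both on chromosome 18, with neighbour medians of -0.71 over 8 genes and -0.34 over 7 genes. ATP5I and ATP5L, which rose, had neighbour medians of 0.77 over 24 genes and 0.93 over 31 genes. By limma 9 neighbours rose and 2 fell around ATP5I, and 13 rose and 3 fell around ATP5L. Over all genes 14.2% rose and 13.1% fell. SDHC, with 1.62 ± 0.18 (SE) between the resistant lines, had 32 tested neighbours with a median of -0.38 in that comparison, 7 lower and 0 higher by limma. ATP5G3, at -1.09 in the same comparison, had 6 tested neighbours with a median of -0.65, 3 lower and 0 higher. Over all genes 7.04% were higher and 8.48% lower there. The part of gene position in any of these differences was not tested.

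Respiratory chain mRNAs are short. The dominant isoforms of the 84 genes had a median length of 852 nt, against 2776 nt over all tested genes. In 4 length classes and 4 comparisons with the WT-labelled library, the median of the respiratory chain genes was below that of other genes with a mean of 10 FPKM or more in 15 of 16 cases, with gaps of unequal size. Among genes of 300 to 600 nt the 22 respiratory chain genes had median differences from the WT-labelled library of 0.03 (idelalisib) and 0.02 (ibrutinib) in DAUDI and 0.01 and -0.04 in DOHH2. The 103 other genes of that length had 0.28 and 0.42 in DAUDI and 0.16 and 0.08 in DOHH2. The exception was 900 to 1500 nt in ibrutinib-resistant DAUDI, at 0.28 for respiratory chain genes and 0.27 for others. From 1500 nt upward the values in ibrutinib-resistant DOHH2 were 0.05 and 0.06.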
